A study of Mus musculus with 17 samples.

Results

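Receptors first known from natural killer (NK) cells were followed in tumors of AB12, a murine mesothelioma cell line. The set holds 9 genes, taken by name as the rows of the count table whose Ensembl identifiers carry these symbols in Gencode vM21: Klrc1, Klrc2, Klrd1, Klre1, Klrk1, Klrb1c, Ncr1, Cd226 and Cd96. They are 9 of the 55450 genes in the table, and each of the 9 passed the filter on low counts in every comparison below. AB12 cells had been injected into the peritoneum of 8-week-old female BALB/c mice, and bulk RNA of the peritoneal tumors was sequenced in 17 libraries. Untreated tumors were taken after the injection of tumor cells, 3 of them at d6, 5 at d10 and 3 at d14. Tumors of mice given 200 µg of anti-CTLA4 (clone 9D9), an antibody against a checkpoint receptor of T cells, into the peritoneum were taken at d10 (n = 3) and d14 (n = 3). Per the study's text the treated d14 tumors came from mice injected at d6 and d10, a shorter schedule than the general one in its methods and labels, while the injection days of the treated d10 tumors were not given in the sources used here. All groups share 1 transplanted line, 1 mouse strain and 1 sex, and no control antibody is named for the untreated mice. The study's methods state that each group came from at least 3 independent mice, so each library of the 4 groups of 3 is a separate mouse, while the labels do not give the animal of each of the 5 untreated d10 tumors.

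NK cells and CD8 T cells kill target cells with the same granule proteins, and they read target cells through an overlapping set of surface receptors. Klrd1 encodes CD94, which pairs with NKG2A (Klrc1) to form an inhibitory receptor or with NKG2C (Klrc2) to form an activating one. Both pairs bind the non-classical MHC molecule Qa-1, and CD94/NKG2A is also known as a receptor that CD8 T cells gain in tumors and chronic infection. Klre1 encodes another lectin-like chain, and Klrk1 encodes NKG2D, which binds stress-induced ligands and is found on NK cells and on activated mouse CD8 T cells. Ncr1 encodes NKp46 and Klrb1c encodes the NK1.1 protein of C57BL/6 mice, both long used to mark NK cells and related innate lymphoid cells. Cd226 (DNAM-1, activating) and Cd96 (TACTILE) are expressed on NK cells and T cells and share ligands of the nectin family with Tigit. BALB/c mice lack the epitope by which NK1.1 is stained, and the reads were aligned to the C57BL/6J genome. How strain differences in these polymorphic genes bear on the counts was not tested.

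Levels are normalized CPM, counts scaled to the library total with TMM factors over the 17 libraries, and levels of different genes are compared only as CPM per kb of exon. The length is that of all annotated exons together, 7183 bases for Klrk1 and 5812 for Klrc2 against 1281 for Klrd1. Annotated bases that the tumors do not use would lower the level per kb, and this was not tested. A gene is called where edgeR's quasi-likelihood test gave a Benjamini-Hochberg adjusted p below 0.05 over all tested genes and the log2 fold change was above 1 in size. Genes that the study removed for a batch effect between sequencing projects were not removed here. Total counts were 46371577 to 96759833 per library (median 72413343). Untreated d10 replicates 4 and 5 stood apart from replicates 1 to 3 of the same label. Mir6236, a small RNA gene whose counts separate these libraries, had 141 to 176 counts in the former and 3964 to 12332 in the latter. The d6 tumors had 3387 to 4697 Mir6236 counts, the treated d10 tumors 205 to 1244 and all d14 tumors 5 to 24. For the 9 genes, comparisons with d10 are therefore also given with each part of the d10 tumors where a call changed, and the genes of other lists were not refitted in this way. The Mir6236 counts of all d14 tumors lie below those of all d6 and d10 tumors, the parts of the d10 tumors included, so that in each comparison of d14 with d6 or d10 the day and this difference between libraries cannot be told apart. In bulk tumors, fewer cells of a type and less RNA per cell cannot be told apart.

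Of the 9 genes, 6 lie in the NK gene complex of chromosome 6 (GRCm38, Gencode vM21). Klre1 (chr6:129577905-129585827, plus strand), Klrd1 (chr6:129591782-129598775, plus strand), Klrk1 (chr6:129610323-129623864, minus strand), Klrc2 (chr6:129647496-129660689, minus strand) and Klrc1 (chr6:129666015-129678973, minus strand) are neighbours in that order. Klrb1c (chr6:128778485-128789215, minus strand) lies apart from them in the same complex. Outside it are Ncr1 (chr7:4337724-4345164, plus strand), Cd96 (chr16:46035657-46120251, minus strand) and Cd226. Klrb1c shares 413 of its 2961 exonic bases with Gm44511 on the same strand, a gene listed at 0 counts in all libraries, and the other 8 genes share no exonic base with another gene. Reads in the shared bases may have been counted for neither gene, and the effect on the Klrb1c counts was not tested.

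Klrc1 and Klrc2 are shown at the start of their coding sequences because this is where the inhibitory and the activating chain differ most plainly. The cytoplasmic tail encoded there carries the inhibitory motif in NKG2A, and NKG2C instead signals through an adaptor. The bases come from Gencode vM21 transcripts on GRCm38, minus strand, and capitals mark bases that differ or have no partner in the other gene when the first 150 coding bases of Klrc1 are aligned with Klrc2.
Klrc1, chr6:129678761-129678910: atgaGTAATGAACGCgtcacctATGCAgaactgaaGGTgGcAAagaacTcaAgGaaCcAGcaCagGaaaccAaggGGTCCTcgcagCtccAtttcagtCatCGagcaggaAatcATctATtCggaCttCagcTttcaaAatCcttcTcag
Klrc2, chr6:129660425-129660556: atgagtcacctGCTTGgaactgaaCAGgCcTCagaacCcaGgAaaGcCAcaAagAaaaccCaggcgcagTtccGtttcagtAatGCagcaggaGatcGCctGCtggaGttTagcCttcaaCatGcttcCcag
Over the whole coding sequences (735 and 717 bases) Klrc1 and Klrc2 were 81.1% identical. The longest identical run, 103 bases, closes the coding sequence of Klrc1 and shows where a read could not tell the genes apart.
shared run in Klrc1, chr6:129674859-129674961: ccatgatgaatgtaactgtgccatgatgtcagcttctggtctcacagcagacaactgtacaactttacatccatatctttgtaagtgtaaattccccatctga
Of 661 windows of 75 bases in Klrc1, the shorter of the read lengths used, 53 (8.02%) were also in Klrc2. Klrc2 shared 129 of 643 windows (20.1%) with Klrc3, a further NKG2 chain, and Klrb1c shared 34 of 742 windows (4.58%) with Klrb1a, a relative of NK1.1. Only uniquely mapped reads were kept, so the counts of Klrc2 in particular are uncertain. These shares cover coding bases only, while the exons of Klrc2 hold 5812 bases, and the effect on its counts was not tested.

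At d6 the receptor genes stood in a different order than later. Per kb of exon, Klrk1 (5.27 ± 1.28 CPM per kb, SD, n = 3) and Ncr1 (4.4 ± 0.358, SD, n = 3) had the highest levels of the 9 at d6, and their SDs overlapped. Klrd1 followed at 2.0 ± 0.122 CPM per kb and Cd226 at 1.38 ± 0.106 (SD, n = 3), while Cd96, Klrc1, Klre1, Klrb1c and Klrc2 lay between 0.826 and 0.115. At d10 Klrd1 stood first with 12.3 ± 2.83 CPM per kb (SD, n = 5). Klrc1 (5.56 ± 0.596), Cd96 (4.73 ± 0.572), Klrk1 (4.19 ± 0.811) and Cd226 (4.07 ± 0.678) came next, and neighbours in this order did not differ beyond their SDs (n = 5). Ncr1 had 2.80 ± 0.795 CPM per kb at d10 and was the sixth, above Klre1 (0.840 ± 0.235), Klrc2 (0.454 ± 0.0459) and Klrb1c (0.408 ± 0.0676). In treated d14 tumors Klrd1 was again the highest (15.8 ± 1.75 CPM per kb, SD, n = 3), with Ncr1 at 1.44 ± 0.147.

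**Figure D1:**
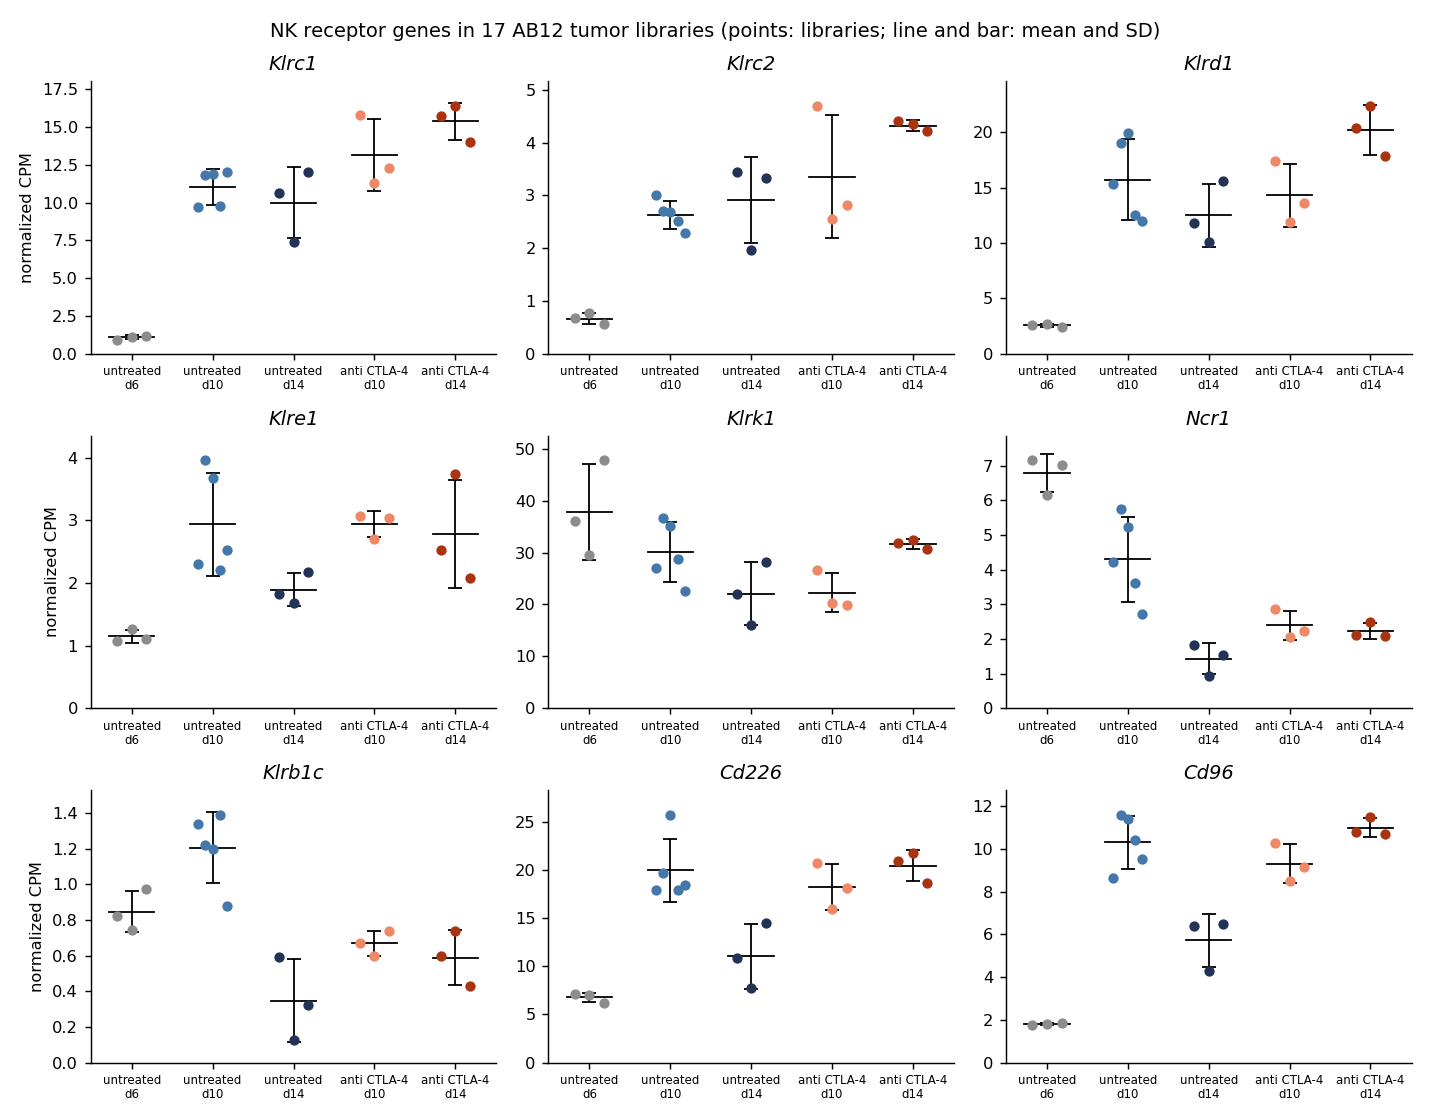
Normalized CPM (linear axes from 0) of the 9 genes in each of the 17 libraries, by group, where points are libraries, lines are means and bars are SDs. The d6 points of Klrc1, Klrc2, Klrd1, Klre1, Cd226 and Cd96 lie under all others of the same gene, whereas those of Ncr1 (6.15 to 7.16) lie above all others.

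From d6 to d10 the CD94/NKG2 genes, Cd226 and Cd96 rose together, and Ncr1, Klrb1c and Klrk1 were not called. Of the 9 genes, 6 were called higher at d10 and 0 lower, against 7.45% of the 16866 genes tested, and their median log2 fold change was 1.59 against 0.03 over all tested genes. The comparison asks which receptors changed while the tumor passed from its early to its intermediate phase.

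Klrc1, the NKG2A chain, had 0.934, 1.13 and 1.17 CPM in d6 tumors and 9.68, 11.8, 11.9, 9.80 and 12 in d10 tumors. The groups lay far apart, with every d10 tumor above 9 CPM, and Klrc1 rose by 3.38 ± 0.18 on the log2 scale (adjusted p = 1.8e-05, edgeR). Klrd1, the CD94 chain it needs to reach the surface, had 2.56, 2.72 and 2.41 CPM at d6. At d10 the Klrd1 levels were 15.3, 19.0, 19.9, 12.5 and 12, where replicates 4 and 5 were the lowest but still well above d6. Its log2 fold change was 2.64 ± 0.22 (adjusted p = 0.00013, edgeR).

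Klrc2, the activating partner chain, was lower in level throughout. It had 0.667, 0.766 and 0.567 CPM at d6 and 3.00, 2.71, 2.68, 2.51 and 2.28 at d10, with no overlap, and rose by 2.01 ± 0.21 on the log2 scale (adjusted p = 0.00047, edgeR). Klre1, whose product pairs with the Klri chains, had 1.07, 1.27 and 1.11 CPM at d6 and 2.31, 3.96, 3.67, 2.21 and 2.53 at d10. The lowest d10 tumor was above every d6 tumor, and the log2 fold change of Klre1 was 1.38 ± 0.27 (adjusted p = 0.0079, edgeR).

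Ncr1 (NKp46) went the other way without a call. It had 7.16, 6.15 and 7.03 CPM in d6 tumors and 4.21, 5.76, 5.23, 3.61 and 2.71 in d10 tumors, so that every d10 tumor was below every d6 tumor. The log2 fold change of Ncr1 was -0.63 ± 0.23 (adjusted p = 0.092, edgeR). It was -0.39 (adjusted p = 0.11) with d10 replicates 1 to 3 and -1.09 (adjusted p = 0.0035, edgeR) with replicates 4 and 5 only. Klrb1c rests on 10 to 119 counts per library. It had 0.823, 0.746 and 0.972 CPM at d6 and 1.34, 1.22, 1.2, 1.39 and 0.879 at d10, where replicate 5 fell within the d6 range. Its log2 fold change was 0.53 ± 0.24 (adjusted p = 0.15, edgeR).

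Klrk1 (NKG2D) was already abundant at d6, with 36.1, 29.6 and 47.8 CPM, and had 27.1, 36.7, 35.2, 28.8 and 22.6 at d10. The groups overlapped, with a log2 fold change of -0.31 ± 0.19 (adjusted p = 0.29, edgeR). Among the nectin-binding receptors, Cd226 (chr18:89176967-89272229, plus strand) rose by 1.59 ± 0.16 on the log2 scale (adjusted p = 0.00038, edgeR), from 7.07, 7.03 and 6.16 CPM to 17.9, 19.7, 25.7, 17.9 and 18.4. Cd96 rose by 2.54 ± 0.16 (adjusted p = 5e-05, edgeR), from 1.76, 1.79 and 1.86 CPM to 8.66, 11.6, 11.4, 10.4 and 9.55. In both genes every d10 tumor was above every d6 tumor.

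From d10 to d14 in untreated tumors the pattern turned: Ncr1 and Klrb1c fell, and no gene of the CD94/NKG2 group was called, in groups that also differ wholly in Mir6236 counts. Of the 9 genes, 0 were called higher and 2 lower, against 7.23% of the 17659 genes tested, and their median log2 fold change was -0.64 against -0.04. By adjusted p alone 4 of the 9 passed, against 19.7% of tested genes, namely Ncr1, Klrb1c, Cd226 and Cd96.

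Ncr1 had 1.83, 0.928 and 1.54 CPM in d14 tumors, each below the lowest d10 tumor (2.71). It fell by 1.59 on the log2 scale (SE 0.31, adjusted p = 0.011, edgeR), and by 1.82 against d10 replicates 1 to 3 or 1.16 against replicates 4 and 5. Klrb1c had 0.592, 0.129 and 0.322 CPM at d14, where replicate 2 rests on 10 counts. It fell by 1.80 (SE 0.43, adjusted p = 0.021, edgeR), all d14 tumors being below all d10 tumors. Without d14 replicate 2, neither gene was called, with a log2 fold change of -1.36 for Ncr1 (adjusted p = 0.056, edgeR) and -1.41 for Klrb1c (adjusted p = 0.062). Klrb1c was also not called without d14 replicate 3 (-1.74, adjusted p = 0.065) or with d10 replicates 4 and 5 only (-1.72, adjusted p = 0.059, edgeR).

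The CD94/NKG2 genes were not called from d10 to d14. Klrc1 had 10.6, 7.39 and 12 CPM at d14 (log2 fold change -0.15 ± 0.18, adjusted p = 0.58, edgeR). Klrc2 had 3.44, 1.97 and 3.34 (0.14 ± 0.22, adjusted p = 0.66) and Klrd1 had 11.8, 10.1 and 15.6 (-0.33 ± 0.21, adjusted p = 0.27, edgeR). Each of these 3 genes overlapped with its d10 values, and replicate 2 was the lowest d14 tumor in all of them. Klre1 was at 1.82, 1.68 and 2.18 CPM, just under its lowest d10 value of 2.21, with a log2 fold change of -0.64 ± 0.26 (adjusted p = 0.10, edgeR). Against d10 replicates 1 to 3 only, Klre1 (-0.80, adjusted p = 0.037) and Klrd1 (-0.53, adjusted p = 0.049, edgeR) passed by adjusted p but not by fold.

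Cd226 and Cd96 lay in between. Cd226 had 10.8, 7.75 and 14.5 CPM and Cd96 had 6.38, 4.27 and 6.51, below every d10 tumor in both cases. Their log2 fold changes were -0.86 ± 0.21 (adjusted p = 0.021, edgeR) and -0.86 ± 0.18 (adjusted p = 0.014), short of the fold threshold. Without d14 replicate 3, Cd226 passed it at -1.10 (adjusted p = 0.022, edgeR). Klrk1 had 22, 16.0 and 28.2 CPM, overlapping with d10 (-0.45 ± 0.20, adjusted p = 0.14, edgeR).

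Between the ends of the untreated course, d14 against d6, the set divided in opposite directions, in groups that also differ wholly in Mir6236 counts. Klrc1 (log2 fold change 3.23 ± 0.23, adjusted p = 3.4e-05), Klrc2 (2.15 ± 0.28, adjusted p = 0.00039), Klrd1 (2.30 ± 0.19, adjusted p = 5.3e-05) and Cd96 (1.68 ± 0.21, adjusted p = 0.0003, edgeR) were higher. Ncr1 was lower by 2.22 on the log2 scale (a fold change of -2.22 ± 0.25, adjusted p = 0.0002, edgeR), and so was Klrb1c (-1.27 ± 0.47, adjusted p = 0.047). These are 4 of 9 genes called higher and 2 lower, against 19.0% of the 17172 genes tested, and all 9 passed by adjusted p alone, as did 51.5% of tested genes. The call of Klrb1c is the least firm of them. It was lost without TMM (-1.19, adjusted p = 0.061, edgeR) and without any 1 of d6 replicates 1, 2 and 3 or of d14 replicates 2 and 3 (log2 fold changes -1.36 to -0.88). Klre1 (0.74 ± 0.22, adjusted p = 0.02), Cd226 (0.72 ± 0.21, adjusted p = 0.02) and Klrk1 (-0.76 ± 0.22, adjusted p = 0.018, edgeR) stayed within the fold threshold. Each of these comparisons shares its d6, d10 or d14 tumors with another, so their values are set side by side and not taken as separate evidence.

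**Figure D2:**
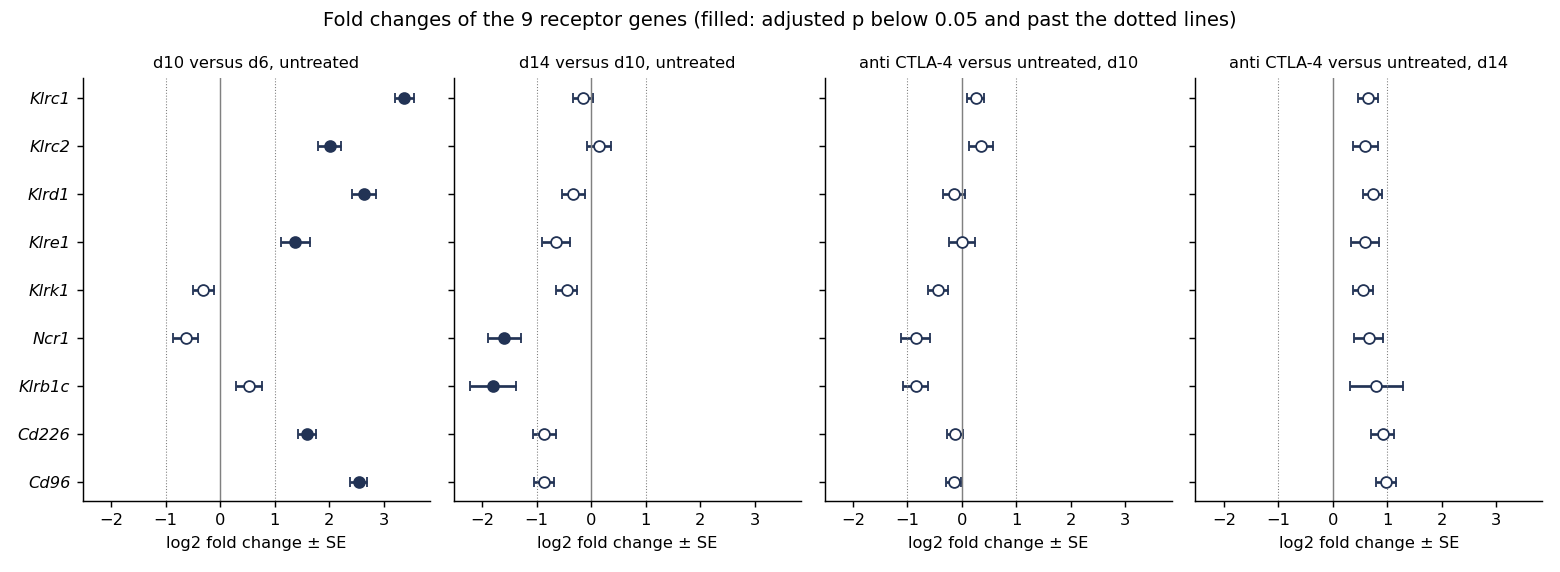
Log2 fold changes (horizontal axis, points) with standard errors (bars) of the 9 genes in 4 comparisons, where filled points are called and dotted lines mark the fold threshold. From d6 to d10 the 6 filled points lie on the right, from d10 to d14 the filled points are Ncr1 and Klrb1c on the left, and no point is filled for anti CTLA-4 at either day.

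The contrast between the CD94/NKG2 group and the NK markers can be read within each library, as the summed CPM of Klrc1, Klrc2, Klrd1 and Klre1 over that of Ncr1 and Klrb1c. This ratio does not depend on scaling between libraries, and it is a description without a test, since it is a score over chosen genes. The sums are not scaled by exon length, so the ratio is compared between libraries and its distance from 1 is not read. In d6 tumors the ratio was 0.655, 0.854 and 0.658. At d10 it was 5.45, 5.37, 5.92, 5.41 and 8.03, with replicate 5 the highest. At d14 it was 11.4, 20.0 and 17.8. No d6 value reached the d10 range and no d10 value the d14 range. In mean log2 ratio the step was 3.06 from d6 to d10 and 1.42 from d10 to d14, where the group SDs were 0.22 (d6, n = 3), 0.25 (d10, n = 5) and 0.43 (d14, n = 3). With Klrd1 over Ncr1 alone the steps were 3.29 and 1.27. The first step came mainly with higher CD94/NKG2 levels and the second mainly with lower Ncr1 and Klrb1c levels, gene by gene as given above.

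**Figure D3:**
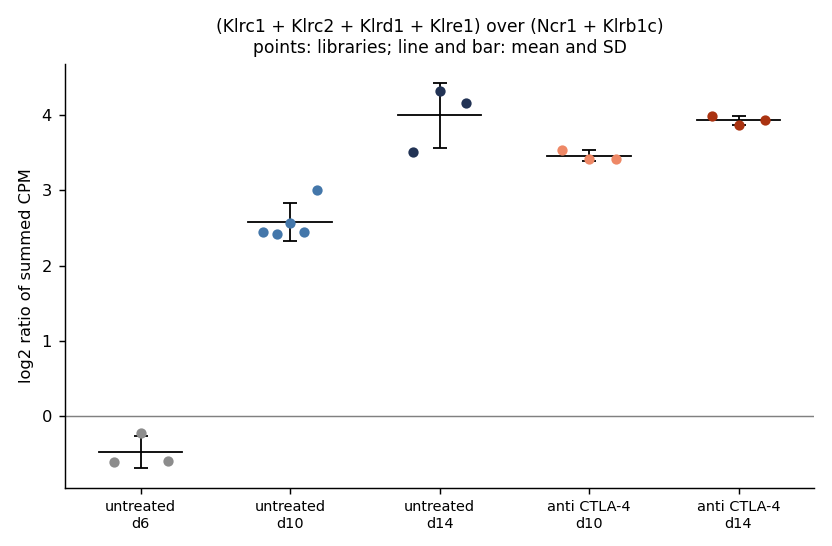
Log2 ratio of the summed CPM of Klrc1, Klrc2, Klrd1 and Klre1 over that of Ncr1 and Klrb1c (vertical axis) by group, where points are libraries, lines are means and bars are SDs. The 3 d6 tumors lie under 0 (-0.61 to -0.23) and the other 14 above 2, with untreated d14 tumors at 3.51, 4.32 and 4.16, treated d14 tumors at 3.87 to 3.99 and treated d10 tumors at 3.41 to 3.54.

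Anti CTLA-4 at d10 gave no call among the 9 genes, with 0 of 9 called against 0.0174% of the 17258 genes tested (3 genes in all). By unadjusted p below 0.05, 2329 of the tested genes passed, among them Klrk1, Klrb1c and Ncr1, and DESeq2 also called 0 of the 9. Ncr1 had 2.87, 2.06 and 2.24 CPM in treated d10 tumors, within or below the untreated range, with a log2 fold change of -0.85 ± 0.26 (adjusted p = 0.27, edgeR). This value depends on which untreated d10 tumors are used, since it was -1.07 against replicates 1 to 3 (adjusted p = 0.0036, edgeR), a call, and -0.41 against replicates 4 and 5 (adjusted p = 0.35). Klrb1c had 0.669, 0.599 and 0.739 CPM, each below the lowest untreated d10 tumor (0.879), with -0.85 ± 0.23 (adjusted p = 0.23, edgeR).

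The CD94/NKG2 genes overlapped with untreated d10 tumors. In treated d10 tumors Klrc1 had 15.8, 11.3 and 12.3 CPM (log2 fold change 0.25 ± 0.15, adjusted p = 0.47), Klrc2 had 4.70, 2.56 and 2.81 (0.35 ± 0.22, adjusted p = 0.50) and Klrd1 had 17.4, 11.9 and 13.6 (-0.14 ± 0.20, adjusted p = 0.77, edgeR). Treated replicate 1 was the highest in these 3 genes. Klre1, Cd226 and Cd96 had log2 fold changes between -0.15 and 0.00, and Klrk1 had -0.44 ± 0.18 (adjusted p = 0.34, edgeR).

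At d14 the 9 genes were each higher in mean after anti CTLA-4, and 0 of them passed the fold threshold. The count of 0 of 9 stands against 11.5% of the 18062 genes called, and 4 of the 9 passed by adjusted p alone against 32.4% of tested genes. The median log2 fold change of the 9 was 0.66, against 0.00 over all tested genes. DESeq2 called 0 as well, and 7 of the 9 had an unadjusted p below 0.05 among 8199 genes that did.

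Cd96 and Cd226 had the largest of these fold changes. Cd96 had 10.8, 11.5 and 10.7 CPM in treated d14 tumors, above every untreated d14 tumor (up to 6.51), with a log2 fold change of 0.98 ± 0.18 (adjusted p = 0.0086, edgeR). Cd226 had 20.9, 21.7 and 18.6 against at most 14.5 (0.92 ± 0.21, adjusted p = 0.016, edgeR). Both lie at the fold threshold, and leaving out single tumors moved Cd96 over it without untreated replicate 1 (1.07) or 3 (1.11) or treated replicate 1 (1.01) or 3 (1.04), and Cd226 without untreated replicate 3 (1.2) or treated replicate 3 (1.03).

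Klrd1 had 20.4, 22.4 and 17.9 CPM in treated d14 tumors, all above the untreated ones, and a log2 fold change of 0.73 ± 0.17 (adjusted p = 0.017, edgeR). Klrc1 had 15.7, 16.4 and 14.0, again without overlap (0.65 ± 0.18, adjusted p = 0.029, edgeR). Klrc2 had 4.41, 4.35 and 4.22 (0.60 ± 0.23, adjusted p = 0.081) and Klre1 had 2.52, 3.74 and 2.08 (0.59 ± 0.25, adjusted p = 0.11, edgeR). The treated tumors were close to each other in Klrc2 and wide apart in Klre1, which overlapped with the untreated ones.

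For the NK markers at d14 the differences were of like size but less certain. Ncr1 had 2.10, 2.48 and 2.08 CPM in treated tumors, above the 3 untreated ones (0.66 ± 0.27, adjusted p = 0.096, edgeR). Klrb1c had 0.599, 0.737 and 0.431 and overlapped (0.80 ± 0.49, adjusted p = 0.25). Klrk1 had 31.9, 32.5 and 30.6 CPM against 16.0 to 28.2 (0.55 ± 0.18, adjusted p = 0.051, edgeR). The ratio of the CD94/NKG2 group to Ncr1 and Klrb1c was 15.9, 14.6 and 15.3 in treated d14 tumors, inside the untreated d14 range, and 11.6, 10.7 and 10.6 in treated d10 tumors, above the untreated d10 range.

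Treated d14 tumors can also be set against untreated d10 tumors, to ask which receptors differed from the level of untreated intermediate tumors. Klrb1c was lower (log2 fold change -1.07 ± 0.26, adjusted p = 0.015, edgeR), the 1 call among the 9 (0 higher, 1 lower) against 7.83% of the 18057 genes tested. Ncr1 was next, at -0.99 ± 0.25 (adjusted p = 0.018, edgeR), with -1.22 against d10 replicates 1 to 3 (a call) and -0.54 against replicates 4 and 5 (adjusted p = 0.069). The call of Klrb1c was lost against d10 replicates 4 and 5 (-0.97) and without TMM (-0.93). It was also lost without treated replicate 1 (-1.09, adjusted p = 0.053, edgeR) or 3 (-0.89). Ncr1 passed without untreated d10 replicate 1 (-1.01), 4 (-1.05) or 5 (-1.12). By adjusted p alone 4 of 9 passed, against 27.7% of tested genes, the others being Klrc1 (0.44 ± 0.13, adjusted p = 0.03) and Klrc2 (0.68 ± 0.15, adjusted p = 0.0097, edgeR). Cd226 (-0.01), Cd96 (0.05) and Klrk1 (0.04) had log2 fold changes near 0, and Klrd1 (0.32 ± 0.18, adjusted p = 0.20, edgeR) and Klre1 (-0.12) were not past the threshold.

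Whether the effect of anti CTLA-4 differed between d14 and d10 was tested as an interaction in 1 fit of the 4 groups. Ncr1 (1.5 ± 0.39, adjusted p = 0.018), Klrb1c (1.64 ± 0.53, adjusted p = 0.046), Cd96 (1.12 ± 0.22, adjusted p = 0.0059) and Cd226 (1.04 ± 0.27, adjusted p = 0.018, edgeR) had a more positive log2 fold change at d14 than at d10. They are 4 of 9 genes called higher and 0 lower, against 11.8% of the 18574 genes tested. With Klrk1 (0.98 ± 0.27, adjusted p = 0.026, edgeR), 5 of 9 passed by adjusted p alone, against 17.7%. Klrd1 (0.85 ± 0.29, adjusted p = 0.057), Klre1 (0.57), Klrc1 (0.39, adjusted p = 0.28, edgeR) and Klrc2 (0.24, adjusted p = 0.66) were not called. Without untreated d14 replicate 2 the number of calls was 0, and Ncr1 was then at 1.24 (adjusted p = 0.051, edgeR) and Cd96 at 0.92 (adjusted p = 0.015). Ncr1 was also not called without treated d10 replicate 2 (1.40, adjusted p = 0.052, edgeR) or treated d14 replicate 2 (1.39, adjusted p = 0.054). Cd226 was not called without these (0.95 and 0.97) or untreated d10 replicate 3 (0.93) or untreated d14 replicate 2 (0.81). With all genes that had at least 1 count in the fit, Cd226 (0.99) and Klrb1c (1.59, adjusted p = 0.067, edgeR) were not called. Klrb1c, with the fewest counts, lost its call in most fits that left out 1 tumor (log2 differences 1.23 to 1.70). With d10 replicates 4 and 5 as the untreated d10 tumors, Ncr1 (1.07) and Cd96 (1.08) were called, while Klrb1c (1.57, adjusted p = 0.087, edgeR) and Cd226 (0.92) were not. With d10 replicates 1 to 3 the same 4 genes as in all tumors were called, and Klrd1 (1.05, adjusted p = 0.0062) and Klrk1 (1.11, adjusted p = 0.0056, edgeR) besides. Klrk1 passed the fold threshold without untreated d10 replicate 1 (1.01) or 5 (1.06), treated d10 replicate 1 (1.11) or untreated d14 replicate 3 (1.17), and Klrd1 without the last of these (1.02, adjusted p = 0.032, edgeR).

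The likeness of each gene to others was measured as Pearson's r of log2(CPM + 1) over the 17 libraries, among 12378 protein coding genes with a mean of at least 1 CPM. It is a description, since the libraries of a group share their day and treatment. Klrd1 was most like Klrc1 (r = 0.976), Sytl2 (0.974), Havcr2 (0.971), Rhov (0.965) and Cd8a (0.963). Of these, Cd8a encodes the CD8 alpha chain and Havcr2 the checkpoint receptor TIM-3. Cd8a was also the nearest gene to Klrc1 (0.978) and to Cd96 (0.986), and Cd226 was nearest to Fasl (0.964) and Cd3e (0.961). Ncr1 was most like Epsti1 (0.963), Gpr34 (0.950), Ube2q1 (0.948), Postn (0.941) and Eid2 (0.935). Between Ncr1 and Klrd1 r was -0.544, and between Ncr1 and Klrk1 it was 0.753. Klrb1c had too low a mean to enter.

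**Figure D4:**
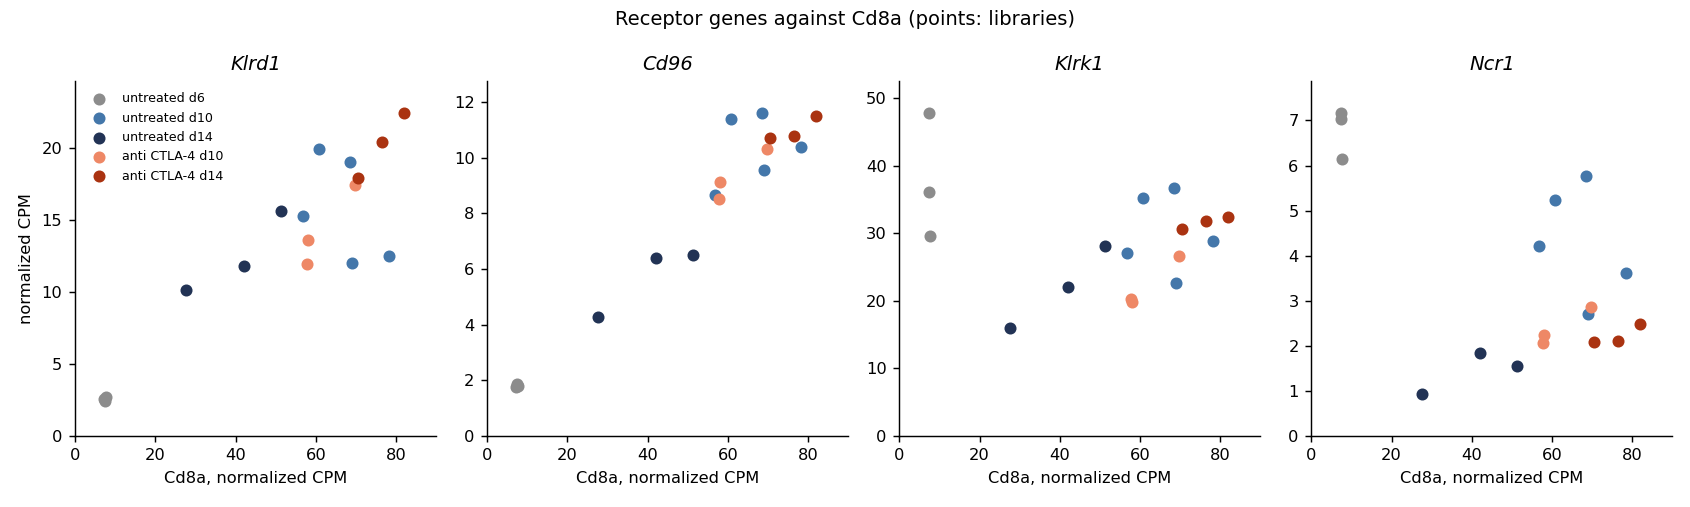
Klrd1, Cd96, Klrk1 and Ncr1 (vertical axes, normalized CPM) against Cd8a (horizontal axis, normalized CPM) in the 17 libraries, coloured by group. Klrd1 and Cd96 are lowest in the 3 d6 tumors, where Cd8a had 7.29 to 7.68 CPM, while Ncr1 is highest there.

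The CD8 markers Cd8a and Cd8b1 together had 12.1 to 12.4 CPM at d6, 96.5 to 135 at d10 and 38.3 to 73.4 at d14 in untreated tumors, and 91.2 to 108 and 102 to 118 in treated d10 and d14 tumors. Both were called higher from d6 to d10, Cd8a with a log2 fold change of 3.19 ± 0.13 (adjusted p = 7.6e-06, edgeR). From d10 to d14, Cd8b1 fell by 1.41 (SE 0.23, adjusted p = 0.0071, edgeR) and Cd8a was at -0.73 ± 0.19 (adjusted p = 0.027). Over the same step Klrc1 and Klrc2 had log2 fold changes of -0.15 and 0.14, and a test of these differences between genes was not made. Of 8 T cell markers, 7 were called higher from d6 to d10, 4 lower from d10 to d14 and 2 higher after treatment at d14, with median log2 fold changes of 1.63, -1.02 and 0.98 (0.03, -0.04 and 0.00 over all tested genes). Their summed level was 63.1 to 74.7 CPM at d6, 202 to 255 at d10, 83.8 to 146 at d14, and 192 to 220 and 211 to 243 in treated d10 and d14 tumors, with no marker at 0. The part of these cells in the receptor values was not tested.

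Other NK cell genes did not share 1 course, as some of them fell with Ncr1 and others did not. Of 6 NK lineage markers, 5 were tested from d6 to d10, with 1 called higher (Cma1, 1.28 ± 0.27, adjusted p = 0.012, edgeR), and none was called lower in any of the 7 comparisons. Cma1 encodes mast cell chymase and is best known from mast cells. Eomes, a transcription factor of NK cells and of some CD8 T cells, had 4.15 to 5.18 CPM at d6, 7.32 to 8.78 at d10 and 2.71 to 5.03 at d14. The median log2 fold change of the list was -0.19 from d6 to d10, 0.22 from d10 to d14 and 0.06 after treatment at d14. Itga2 made up most of the list's sum and is also expressed outside NK cells, and Khdc1a was at or near 0 in all groups. Of 9 Ly49 receptor genes, which BALB/c mice carry in a smaller number than the reference strain, 3 passed the filter on low counts in the fits of 2 groups, and Klra6 and Klra8 were listed at 0 in every library. From d10 to d14 Klra3 fell by 1.80 (SE 0.28, adjusted p = 0.0065, edgeR) and Klra5 by 1.88 (SE 0.32, adjusted p = 0.008), both from under 2 CPM. Klra3 had 1.35 to 1.89 CPM at d6, 0.879 to 1.67 at d10 and 0.322 to 0.403 at d14. The median of the 3 was -0.01 from d6 to d10 and -1.80 from d10 to d14, and Klra5 was higher after anti CTLA-4 at d14 (1.60 ± 0.30, adjusted p = 0.0089, edgeR). Between d6 and d14, 2 of the 3 were called lower and 0 higher, against 19.0% of all tested genes called.

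Among 10 further lectin-like genes found in the annotation, 9 were tested. From d6 to d10, 2 were called higher and 0 lower: Klrc3 (log2 fold change 2.35 ± 0.54, adjusted p = 0.016) and Klrg1 (1.43 ± 0.28, adjusted p = 0.0078, edgeR), a receptor of antigen-experienced T cells and mature NK cells. From d10 to d14, 0 were called higher and 2 lower: Klrg1 fell by 1.55 (SE 0.29, adjusted p = 0.0093, edgeR) and Klrb1a by 1.17 (SE 0.33, adjusted p = 0.037). Treated d14 tumors had higher Klrg1 (1.33 ± 0.18, adjusted p = 0.005) and Clec2i (1.16 ± 0.21, adjusted p = 0.0079, edgeR) than untreated d14 tumors. The median of the 9 was 0.34, -0.58 and 0.51 in these comparisons. Between d6 and d14, 1 of the 9 was called higher and 2 lower, against 19.0% of all tested genes called. Klrb1f had 1.56 to 2.0 CPM at d6, 0.551 to 1.25 at d10 and 0.413 to 0.644 at d14, lower at d10 than at d6 without overlap, as Ncr1 was. Klri1 and Klri2, the partner chains of Klre1, were called in none of the 6 comparisons of 2 groups. Klrc3 rose from near the floor, with 0.0202 to 0.142 CPM at d6 and 0.279 to 0.604 at d10, and its reads are subject to the same sharing with Klrc2 as above.

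The markers of gamma delta T cells, which also carry NK receptors, also moved after d10. Of 5 such genes, 1 was called higher from d6 to d10 (Tcrg-C2, 2.44 ± 0.28, adjusted p = 0.00064, edgeR) and 4 were called lower from d10 to d14, namely Trdc, Tcrg-C1, Tcrg-C2 and Tcrg-C4. Trdc, the constant region of the delta chain, had 1.61 to 2.47 CPM at d6, 0.932 to 2.24 at d10 and 0.332 to 0.471 at d14, and fell by 1.99 from d10 to d14 (SE 0.33, adjusted p = 0.0075, edgeR). After anti CTLA-4 at d14, Trdc (1.28 ± 0.26, adjusted p = 0.011), Tcrg-C1, Tcrg-C2 and Tcrg-C4 (1.58 ± 0.24, adjusted p = 0.0059, edgeR) were called higher. The median of the 5 was -0.22, -1.85 and 1.28 in these comparisons. Summed over the 5 genes, the level was 14.3 to 16.9 CPM in untreated d14 tumors and 15.1 to 27.9 in untreated d10 tumors. Sox13 gave the largest part of this sum. The part of gamma delta T cells in the Ncr1 values was not tested.

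Several of the activating receptors among the 9, such as NKG2D, NKG2C and NKp46, signal through adaptor proteins. Of 12 adaptor and proximal signaling genes, 4 were called higher and 0 lower from d6 to d10, 0 higher and 7 lower from d10 to d14, and 7 higher and 0 lower after treatment at d14, with medians of 0.51, -1.02 and 1.16. Hcst (DAP10), the partner of NKG2D, had log2 fold changes of 1.48 ± 0.26 (adjusted p = 0.0045), -1.29 ± 0.30 (adjusted p = 0.019) and 1.22 ± 0.26 (adjusted p = 0.013, edgeR) in that order, while Klrk1 itself was called in none of them. Fcer1g, which transmits signals of NKp46 and NK1.1 and is also abundant in myeloid cells, was at -0.04 ± 0.27 from d6 to d10 and fell by 1.51 from d10 to d14 (SE 0.31, adjusted p = 0.013, edgeR). Cd247 (CD3 zeta), used by NKp46 and by the T cell receptor, rose by 1.42 ± 0.13 (adjusted p = 0.00025) and then fell by 1.25 (SE 0.22, adjusted p = 0.0082, edgeR). Zap70 and Sh2d1a, signaling proteins of T cells and NK cells, rose from d6 to d10 by 1.69 ± 0.19 (adjusted p = 0.0006) and 1.26 ± 0.20 (adjusted p = 0.0031, edgeR). Tyrobp (DAP12), the partner of CD94/NKG2C, fell by 1.03 from d10 to d14 (SE 0.24, adjusted p = 0.019, edgeR). Macrophage markers, the cells in which Fcer1g and Tyrobp are also expressed, summed to 374 to 460 CPM at d6, 410 to 684 at d10, 194 to 385 at d14, and 465 to 530 and 619 to 794 in treated d10 and d14 tumors. Of these 3 markers, 3 were called higher after treatment at d14, and their part in the adaptor values was not tested.

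Among the ligand genes, H2-T23, which encodes Qa-1, the ligand of CD94/NKG2, had 550 to 561 CPM at d6 and 395 to 458 at d14, and was not called in any comparison. At d10 H2-T23 had 372, 402 and 418 CPM in replicates 1 to 3, below d6, and 657 and 671 in replicates 4 and 5, above d6. Of the 12 ligand genes listed, 8 were found in the annotation and 6 or 7 were tested, with median log2 fold changes of 0.52 from d6 to d10 and -0.25 from d10 to d14. The only call was Nectin2 between d14 and d6 (-1.06 ± 0.11, adjusted p = 0.00013, edgeR). Pvr, the ligand of Cd226, Cd96 and Tigit, had log2 fold changes of 0.48 ± 0.14 from d6 to d10 and 0.50 ± 0.15 from d10 to d14, and 0.97 ± 0.13 (adjusted p = 0.00049, edgeR) between d6 and d14. Tigit, the inhibitory receptor for the same ligands, rose from d6 to d10 (1.07 ± 0.24, adjusted p = 0.015) as did Crtam (1.2 ± 0.22, adjusted p = 0.0054, edgeR), and both were not called from d10 to d14, at -0.28 ± 0.27 and -0.53 ± 0.19. Tigit had 9.67 to 13.7 CPM in d10 replicates 1 to 3 and 18.5 and 18.2 in replicates 4 and 5, against 6.34 to 7.28 at d6.

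Effector genes that NK and CD8 T cells share were called higher in 8 of 11 cases and lower in 0 from d6 to d10, higher in 0 and lower in 8 from d10 to d14, and higher in 8 and lower in 0 after anti CTLA-4 at d14, with medians of 1.5, -1.31 and 1.19 on the log2 scale. Prf1 (perforin) rose by 2.12 ± 0.17 (adjusted p = 0.00013, edgeR) from d6 to d10, where Klrd1 rose by 2.64 and Cd96 by 2.54. Gzma, a granzyme that NK cells hold at rest, had 55.3 to 101 CPM at d10 and 4.64 to 12.7 at d14, and fell by 2.98 between them (SE 0.34, adjusted p = 0.0042, edgeR). Xcl1, a chemokine made by NK cells among others, had 9.31 to 15.6 CPM at d6, 4.94 to 10.8 at d10 and 2.52 to 3.20 at d14. Ifng had 22.6 to 33.4, 9.33 to 24.8 and 4.38 to 8.37 CPM. In both genes the d6 and d10 ranges overlapped, unlike those of Ncr1. In treated d14 tumors Xcl1 had 1.35 to 1.95 CPM, below every untreated d14 tumor, whereas 10 of the 11 effector genes had a log2 fold change above 0 in that comparison. Between d6 and d14, Gzma (-2.45 ± 0.32), Xcl1 (-1.99 ± 0.23) and Ifng (-2.15 ± 0.24, adjusted p = 0.00017, edgeR) were the 3 effector genes called lower.

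The promoters of the receptor genes are shown for 3 that differed in course: Ncr1, which fell, Klrc1, which rose, and Klrk1, which was called in none of the comparisons. The bases are the 250 before a RefSeq start on GRCm38.p6, and capitals mark the letters TGTGGT or ACCACA, a core of RUNX binding sites.
Ncr1, chr7:4337465-4337714, plus strand: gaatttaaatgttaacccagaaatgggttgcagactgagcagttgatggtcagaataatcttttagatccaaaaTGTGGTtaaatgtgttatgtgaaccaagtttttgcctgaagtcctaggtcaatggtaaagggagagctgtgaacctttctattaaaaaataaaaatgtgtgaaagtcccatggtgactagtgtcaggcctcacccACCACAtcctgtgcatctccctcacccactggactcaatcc
Klrc1, chr6:129678974-129679223, minus strand: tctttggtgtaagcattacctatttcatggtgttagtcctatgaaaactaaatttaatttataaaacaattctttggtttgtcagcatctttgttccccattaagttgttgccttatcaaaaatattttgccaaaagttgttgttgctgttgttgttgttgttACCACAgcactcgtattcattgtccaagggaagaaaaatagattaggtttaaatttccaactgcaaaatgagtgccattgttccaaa
Klrk1, chr6:129623865-129624114, minus strand: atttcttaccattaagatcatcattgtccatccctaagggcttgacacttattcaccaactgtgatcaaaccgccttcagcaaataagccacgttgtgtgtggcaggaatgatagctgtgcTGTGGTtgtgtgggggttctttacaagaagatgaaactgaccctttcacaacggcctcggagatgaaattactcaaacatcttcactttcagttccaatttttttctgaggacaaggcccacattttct
In Ncr1 the letters begin 176 and 41 bases before the start, in Klrc1 87 and in Klrk1 129. Over windows from 250 bases before to 50 after the start, on both strands, TGTGGT was found in 7 of the 7 receptor genes that the promoter table holds and in 16.8% of all 32851 promoters (18.9% of 27025 genes). The table has no entry for Klrd1 and Cd226. Of the other motifs searched, 3 in all, GGTGTG (T-box) was in 0 of the 7 genes and 19.0% of promoters, and AGGAAG (ETS) was in Klre1 and Klrb1c and in 35.4% of promoters. The letters were present in genes of each course, and a match of 6 letters is a description of the window only.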

How the data were processed

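Bulk RNA of 17 AB12 tumors was analysed. The authors used the KAPA RNA HyperPrep kit and paired-end reads from a NextSeq500 or NovaSeq6000, aligned reads to GRCm38/mm10 with TopHat2 2.0.14, kept uniquely mapped reads and counted them per gene with HTSeq on Gencode vM21. The deposited values are these raw counts per gene, without normalization. Whether counting used strand, and which library ran on which instrument, is not given in the sources used here. Sample labels gave each library's group and replicate number, and all libraries were used. The 9 members, the gene lists, the tests and the alternatives were chosen with earlier results of these data known.

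Each comparison was fitted in R 4.3.3 with edgeR 4.0.16 (filterByExpr, TMM, quasi-likelihood F-test, Benjamini-Hochberg adjustment over all tested genes), with only the groups compared in the fit. A call needed an adjusted p below 0.05 together with a log2 fold change beyond 1 in either direction, thresholds taken from the study's methods. The SE was obtained by dividing the log2 fold change by the root of F. Levels are CPM on TMM-scaled library sizes over the 17 libraries. The fit was tested on simulated counts with known changes. Named genes are all 9 members, called genes of the lists (where a list had more than 5 calls, the rule was the 3 largest per direction, but the examples given were instead chosen for their role after their values were seen), and the 5 genes most like Klrd1 and most like Ncr1. Genes given outside this rule (Mir6236, Eomes, Itga2, Klra6, Klra8, Klrb1f, Klri1, Klri2, H2-T23, Pvr, Khdc1a, Sox13, Gm44511, Krt19, Msln, Itga2b, Ppbp, and the genes nearest to Klrc1, Cd96 and Cd226) were chosen after their values were seen. Alternatives were DESeq2 1.42.0, no TMM, other count filters, all 5 groups in 1 fit, each replicate left out in turn, the replicate number as a block, and parts of the d10 tumors. Promoter sequences are RefSeq's (GRCm38.p6), matched by symbol. Coding sequences come from Gencode vM21. Depth is given as total counts per library, errors are SDs or SEs between tumors, and no interval from counts is used.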

Additional observations from a re-analysis of the deposited data

Results flagged for a closer look

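Among 10 checks of the 5 untreated d10 tumors (each of the 9 genes and the log2 ratio), 2 tumors lay far from the rest of their group by Dixon's criterion, which chance alone meets in about 1 in 20 groups. Cd226 was 25.7 CPM in untreated d10 replicate 3, against 17.9 to 19.7 in the other 4. The log2 ratio of the CD94/NKG2 genes to Ncr1 and Klrb1c was 3.01 in untreated d10 replicate 5, against 2.42 to 2.57 in the others. Groups of 3 tumors were not checked.

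The effect of anti CTLA-4 differed between d14 and d10 by the interaction test of edgeR in 4 of the 9 genes. The difference in log2 fold change was 1.64 for Klrb1c, 1.5 for Ncr1, 1.04 for Cd226 and 1.12 for Cd96, more positive at d14 in each case. With d10 replicates 4 and 5 as the untreated d10 tumors 2 of the 4 were called (Ncr1 and Cd96), and without untreated d14 replicate 2 the number was 0. The treated and untreated d10 tumors differ in Mir6236 counts as described above, and its part in these differences was not tested.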

How the results depend on the processing

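Of 990 fold changes of the 9 genes under the alternatives, 927 had the same call as in the reported one, 37 lost a call and 26 gained one. No called gene changed direction, and 28 uncalled values changed sign. From d6 to d10 the number of genes called was 6 in the main fit and under each alternative except d10 replicates 4 and 5 alone, where it was 7. From d10 to d14 it was 1 in place of 2 with d10 replicates 4 and 5. For anti CTLA-4 at d10 it was 1 in place of 0 (Ncr1) with the replicate block or with d10 replicates 1 to 3, and at d14 it was 1 in place of 0 (Cd96, 1.0) with the replicate block. For treated d14 against untreated d10 it was 0 in place of 1 without TMM or with d10 replicates 4 and 5, and 2 with the replicate block or d10 replicates 1 to 3. For the difference between d14 and d10 it was 2 in place of 4 with all genes that had at least 1 count and with d10 replicates 4 and 5, 5 without TMM, and 6 with the replicate block or d10 replicates 1 to 3. Leaving out 1 tumor in turn gave 6 to 6, 0 to 2, 5 to 6, 0 to 0, 0 to 2, 0 to 2 and 0 to 5 genes, in the order d10 against d6, d14 against d10, d14 against d6, treatment at d10, treatment at d14, treated d14 against untreated d10, and the difference. The replicate numbers share only a number, as deviations of same-numbered tumors correlated between -0.30 and 0.23, so a call that changes under the replicate block is given as a value only. Scaling by library size without TMM moved the median log2 fold change of all genes from -0.03 to 0.11 for treated d14 against untreated d10, and by less than 0.1 in the other comparisons. Steps of the mean log2 ratio between groups moved by less than the SD between tumors under each alternative, the parts of the d10 tumors among them, which were added for the ratio after seeing the data. The lowest count behind a value of the 9 genes was 10, for Klrb1c in untreated d14 replicate 2.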

Other observations

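Other cell type markers did not share 1 course with the NK receptors. Cd4 had 9.11 to 10.8 CPM at d6, 5.68 to 10.1 at d10 and 2.08 to 4.57 at d14, and fell by 1.2 from d10 to d14 (SE 0.28, adjusted p = 0.019, edgeR), as Ncr1 and Klrb1c did. After anti CTLA-4 at d14 Cd4 was higher by 1.5 on the log2 scale (SE 0.27, adjusted p = 0.0084, edgeR). The 3 B cell markers together ranged from 7.12 to 99.1 CPM among untreated d10 tumors and from 2.07 to 4.82 in treated d10 tumors, and none of them was called in that comparison (log2 fold changes -3.41 to -3.03, adjusted p = 0.19 to 0.27, edgeR). The 4 mesothelial and AB12 tumor markers summed to 858 to 1170 CPM at d6, 945 to 1640 at d10 and 1130 to 1260 at d14, and to 742 to 845 in treated d14 tumors. Krt19 and Msln carry this sum, and the list did not move one way after treatment at d14, where 1 of 4 was called higher (Wt1, 7.71 to 14.1 CPM untreated and 23.8 to 44.1 treated), 0 lower, with a median log2 fold change of 0.54. Platelet markers, which bear on Cd226 because platelets also carry it, summed to 9.94 to 16.8 CPM at d6, 5.35 to 9.71 at d10 and 5.18 to 11.3 at d14, and to 9.45 to 11.9 and 10.5 to 13.5 in treated d10 and d14 tumors. Pf4 was the largest single part of this sum and fell by 1.43 from d6 to d10 (SE 0.31, adjusted p = 0.012, edgeR). Itga2b (0.68 ± 0.22, adjusted p = 0.057) and Ppbp (0.81 ± 0.34, adjusted p = 0.13, edgeR) were not called and had fold changes of the other sign, so that the median of the 3 tested was 0.68. Their part in the Cd226 values was not tested.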
